A study of Mus musculus with 4 samples.

Results

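The Serpinb6 and Serpinb9 cluster is a run of clade B serpin genes on mouse chromosome 13. The 9 genes described here are Serpinb1a, Serpinb6a, Serpinb6b, Serpinb6c, Serpinb6d, Serpinb6e, Serpinb9, Serpinb9b and Serpinb9c. They were named by symbol out of 21631 protein-coding genes on chromosomes 1 to 19 and X. The naming rule used no peak values, but earlier results of these data were known when the genes were chosen. Each was described by the peaks with a summit in its body or within 5 kb of it. All 9 are on chromosome 13 of GRCm38 (mm10), between 32842092 and 34002794. By this rule 12 of the 77823 peaks of the list belonged to 5 of the 9 genes.

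The series used ChIRP, in which biotin-labelled antisense oligonucleotides recover a nuclear RNA together with its DNA, to map the chromatin that Malat1, a long noncoding RNA, binds in 4T1-TGL cells. These are a mouse breast cancer line, labelled as strain BALBC and genotype WT, grown in DMEM/F12. The 4 libraries were a Malat1 pull-down with the Even probes, another with the Odd probes, a pull-down with LacZ probes, and the Even input, with 1 library per group and the same line and genotype in all. The single peak list compared 1 merged treatment with 1 input, and neither the labels nor the headers say which pull-downs were merged or where LacZ entered. No peak had a replicate, no value could be split by probe pool or set against LacZ, and all results describe this list in a single cell line.

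Clade B serpins are intracellular inhibitors of proteases. A serpin offers a flexible loop to its protease as bait, is cleaved, and traps the enzyme in a dead complex. In cytotoxic lymphocytes and in their target cells these inhibitors are known for holding granule proteases in check. Serpinb9 inhibits granzyme B, mouse Serpinb9b granzyme M, and mouse Serpinb6b granzyme A. Serpinb6a inhibits cathepsin G, and Serpinb1a inhibits neutrophil elastase, cathepsin G and proteinase 3. In the mouse the Serpinb1, Serpinb6 and Serpinb9 genes have each multiplied into close paralogs lying side by side. The question put to the list was whether the recovered chromatin included these genes, and where in the cluster the peaks lay.

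All 12 peaks at the listed genes were weak. They held 3 to 7 treatment tags each, 43 in all, and 8 of the 12 (66.7%) held 3 tags, the fewest of any peak. In the whole list 37.2% of peaks held 3 tags and the median was 5. The tag height at their summits was 2 in 5 peaks and 3 in 7. The fold enrichment, the authors' ratio of that height to the largest of the local and genome-wide input rates, ran from 59.9 to 179.5 with a median of 113.5, against a median of 133.1 for all peaks. Only 3 of the 12 lay at or above the median of the list, and 27.7% of all peaks had a higher fold than the strongest of them. The treatment held 851227 tags once duplicates were dropped, and the input was 58.8 times as deep. At the genome mean of the scaled input, a height of 2 gives a fold of 119.7 and a height of 3 gives 179.5, so the size of these folds reflects 2 or 3 tags. The exact 95% Poisson interval runs from 0.619 to 8.77 for 3 tags, from 1.09 to 10.2 for 4 and from 2.81 to 14.4 for 7, covering counting error only. These intervals overlap, so the 12 peaks cannot be ranked by tags. No interval was computed for the summed tags of a gene, so the genes are not ranked by tags either.

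**Figure D1:**
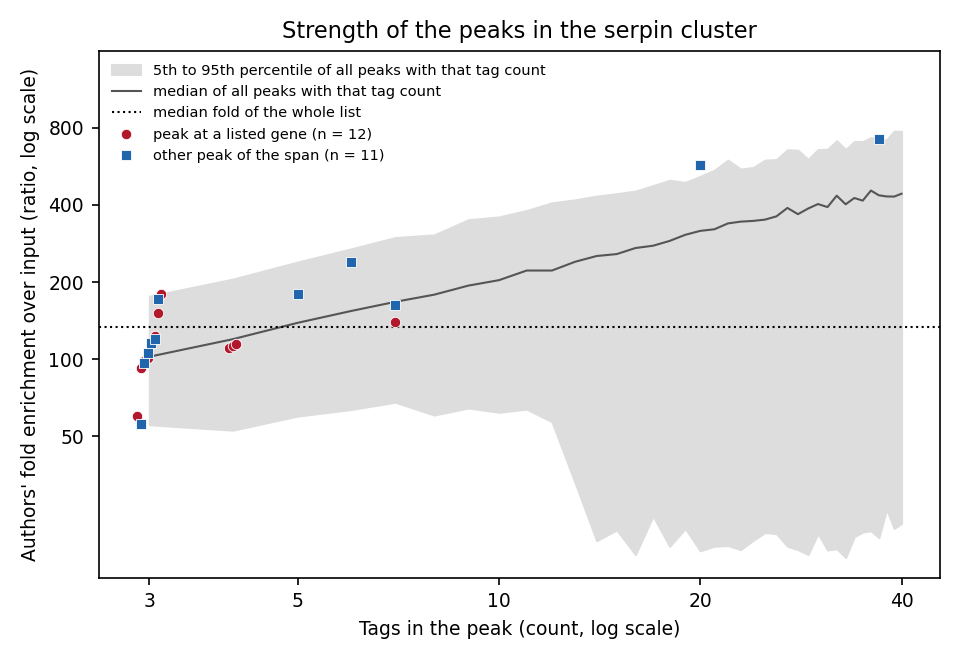
Tags in the peak (count, log scale) against the authors' fold enrichment over input (ratio, log scale) for the 12 peaks at listed genes (red circles) and the 11 other peaks of the cluster span (blue squares), spread slightly sideways where tag counts are equal. The grey band and line give the 5th to 95th percentile and the median of all peaks with the same tag count, and the dotted line is the median fold of the list, 133.1. The red points sit at 3 to 7 tags, and 2 blue points stand at 20 and 37 tags.

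Of the 9 listed genes, 5 had a summit (55.6%), against 60.8% of all protein-coding genes. The share among all genes grew with the length of the window, which is the body plus 5 kb on both sides. Of the 5 listed genes with windows of 20 to 25 kb, 1 had a summit, against 54.7% of the 2170 protein-coding genes of that size. Both listed genes of 25 to 35 kb had one, against 62.1%, as did the listed gene of 35 to 50 kb, against 73.2%, and the listed gene of 50 to 100 kb, against 82.8%. The 4 listed genes with no summit were all among the short ones. A gene with no summit may still have held tags, since the list gives peaks only.

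**Figure D2:**
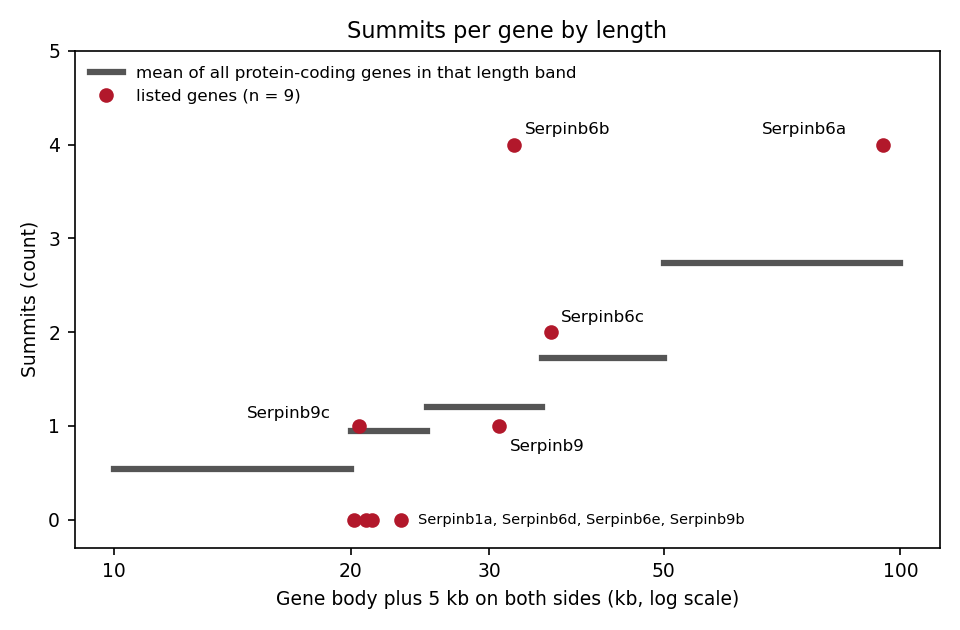
Summits per gene (count) against the length of the gene body plus 5 kb on both sides (kb, log scale) for the 9 listed genes (red points), with the mean of all protein-coding genes in each length band (grey bars). Serpinb6b, with 4 summits in 32.3 kb, stands above the mean of 1.20 for its band, and 4 listed genes are at 0.

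The Serpinb6 genes held 10 of the 12 peaks. They are 5 of the 9 listed genes and have the longest windows, 94.9 kb at Serpinb6a and 35.9 kb at Serpinb6c. The Serpinb9 genes number 3, with windows of 20.5 to 30.9 kb. The split of peaks between the groups is not corrected for gene number or length. Serpinb6b, the granzyme A inhibitor (gene ID 20708, chromosome 13, 32956811 to 32979067, plus strand), had 4 summits within 14601 bp. Its peaks lay at 32963427 to 32963526 (3 tags, fold 123.2), 32968519 to 32968624 (4 tags, fold 114.7), 32974923 to 32975030 (3 tags, fold 92.4) and 32978048 to 32978155 (3 tags, fold 59.9). All 4 folds were below the median of the list, and together the peaks held 13 tags. The first summit lay 1785 bp upstream of the RefSeq start used for the promoter, and the others 3311, 9736 and 12816 bp downstream of it. The annotated body begins further upstream than this start, at 32956811, so the first summit also counted as inside the gene. No other annotated gene had these summits in its window.

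Serpinb6b had 12.4 summits per 100 kb of window, the most of the 9 genes, against 5.57 at Serpinb6c, 4.88 at Serpinb9c, 4.22 at Serpinb6a and 3.24 at Serpinb9. Among protein-coding genes with windows of 25 to 35 kb, 5.68% had at least 4 summits. On chromosome 13 this held for 2 of 104 such genes, Serpinb6b and Marveld2, the second of which encodes a tight junction protein. Against the 18 summits in the 500 kb on either side, 0.581 were predicted in the window of Serpinb6b, so that 6.89 times the predicted number were found. The two-sided exact binomial p was 0.00444 and became 0.628 after Benjamini-Hochberg adjustment over all 21631 genes, where Serpinb6b ranked number 153. It was the only listed gene with an unadjusted p under 0.05, as were 4.55% of all genes tested. None of the 9 passed the adjusted threshold of 0.05, against 11 (0.0509%) of all genes. For the 4 listed genes with no summit, 0.343 to 0.528 were predicted, too few for the test to be able to show a deficit. The flank of Serpinb6b on the side of Serpinb9 reached into a long stretch with no summit that begins at 33196820. Against the mean density of the chromosome in place of the flanks, the exact binomial p of Serpinb6b was 0.00714 (adjusted 0.22). The scaled input implied by the height and fold of its 4 peaks was 1.30 to 2.00 times the genome mean (median 1.51), against a median of 1.15 for peaks of chromosome 13 and 1.4 for the whole list. The part of this local input in the count was not tested.

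Serpinb6a (gene ID 20719, 33917918 to 34002794, minus strand), the longest of the 9, also had 4 summits. Its peaks were at 33949296 to 33949430 (4 tags, fold 112.3), 33958252 to 33958502 (7 tags, fold 139.2), 33984997 to 33985070 (3 tags, fold 114.7) and 33991996 to 33992130 (3 tags, fold 98.6). The 7-tag peak held the most tags of the 12. Counted from the outer of its RefSeq starts, at 34002794, the summits lay 53459, 44434, 17761 and 10704 bp downstream. Each of the 4 also belonged to another gene: the first 2 lay inside the lncRNA 1110046J04Rik, the next inside Nqo2, a quinone reductase gene, and the last within 5 kb of Nqo2. Which of the overlapping genes a peak belongs to cannot be told apart here. Where 2.28 summits were predicted from the flanks, the exact binomial p was 0.3 (adjusted 1).

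Serpinb6c (gene ID 97848, 33879816 to 33905726, minus strand) had 2 summits, from peaks of 3 tags each. The peak at 33905053 to 33905126 (fold 151.2) had its summit 102 bp downstream of the RefSeq start, inside the gene. The other, at 33910397 to 33910530 (fold 100.8), lay 4709 bp outside the body, the only one of the 12 outside a listed gene and the closest to the limit of 5 kb. A further peak of 3 tags with its summit at 33873702 lay 6114 bp beyond the opposite end of Serpinb6c and was not counted. Serpinb6d (gene ID 238568, 33661405 to 33671585) and Serpinb6e (gene ID 435350, 33832345 to 33843408) had no summit. Their nearest summits were 17843 and 30294 bp away, each from a peak of 3 tags.

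**Figure D3:**
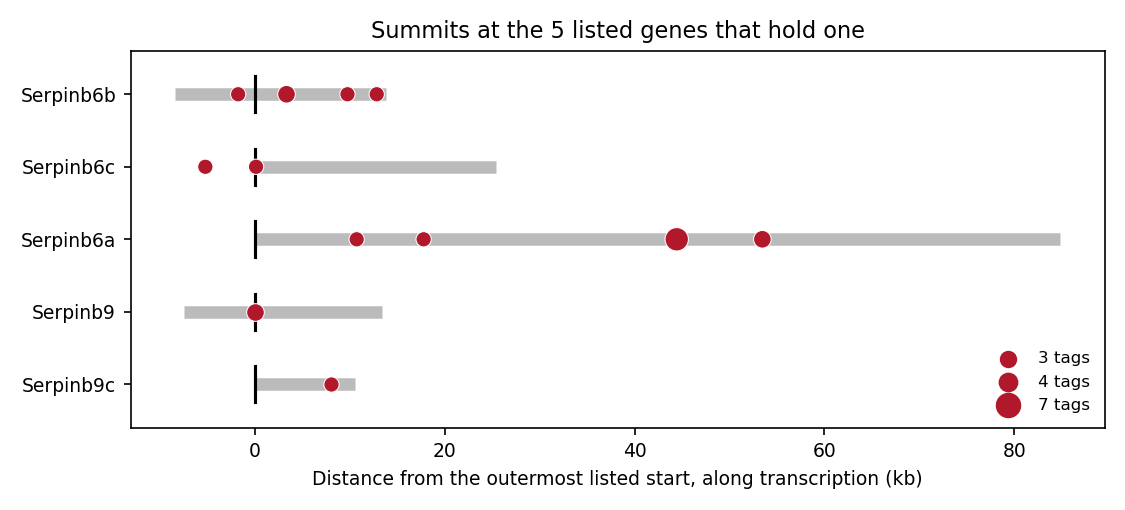
Distance of each summit from the outermost RefSeq start of the promoter table, along the direction of transcription (kb), for the 5 listed genes that hold a summit. Grey bars are gene bodies, black ticks are the starts, and the area of a red point grows with the tags of the peak (3 to 7). The Serpinb9 summit at -51 bp and the Serpinb6c summit at 102 bp sit at the start, and the other 10 are at least 1785 bp from it.

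The Serpinb9 genes held the other 2 peaks. Serpinb9, the granzyme B inhibitor (gene ID 20723, 32997061 to 33017955, plus strand), had a single peak at 33004394 to 33004599 with 4 tags, a height of 2, a fold of 110.9 and an implied input of 1.08. Its summit at 33004490 lay 51 bp upstream of the RefSeq start at 33004541, and the peak covered 197 of the 300 bases of the promoter window, which runs from 250 bases before to 50 after the start. The annotated body begins further upstream than this start, so the summit counted as inside the gene. The same summit lay inside Gm36181, a lncRNA annotated on the opposite strand. Of 17274 protein-coding genes with a window in the promoter table, 1.42% had a summit in it, and Serpinb9 was the only one of the 8 listed genes with a window. Within 1 kb of a start, 2 of these 8 genes (Serpinb9 and Serpinb6c) had a summit, against 8.34% of all. With 4 tags, the Serpinb9 peak had a fold exceeded by 63.8% of the list.

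The 250 bases before the start are shown for 3 genes. The Serpinb9 peak covers 147 of the 250 bases of that gene. Serpinb9b has the promoter window most like that of Serpinb9 among the listed genes. Serpinb6b has the most summits for its length but none in its promoter window. Sequences are from RefSeq, build GRCm38.p6, plus strand, written 5′ to 3′. Capitals mark the 147 bases inside the peak in Serpinb9, the longest run shared with the Serpinb9 window (13 bases) in Serpinb9b, and a GC box in Serpinb6b.
Serpinb9, chr13:33004291-33004540: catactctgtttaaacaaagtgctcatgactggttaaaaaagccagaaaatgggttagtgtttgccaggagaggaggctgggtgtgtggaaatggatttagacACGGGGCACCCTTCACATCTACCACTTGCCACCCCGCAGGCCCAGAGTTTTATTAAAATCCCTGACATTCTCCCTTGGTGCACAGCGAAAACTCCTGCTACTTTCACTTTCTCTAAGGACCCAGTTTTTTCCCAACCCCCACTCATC
Serpinb9b, chr13:33027164-33027413: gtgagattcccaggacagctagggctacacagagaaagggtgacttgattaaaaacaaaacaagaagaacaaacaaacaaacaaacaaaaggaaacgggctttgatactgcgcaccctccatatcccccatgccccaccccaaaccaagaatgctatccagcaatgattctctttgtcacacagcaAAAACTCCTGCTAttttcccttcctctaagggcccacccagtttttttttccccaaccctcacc
Serpinb6b, chr13:32965011-32965260: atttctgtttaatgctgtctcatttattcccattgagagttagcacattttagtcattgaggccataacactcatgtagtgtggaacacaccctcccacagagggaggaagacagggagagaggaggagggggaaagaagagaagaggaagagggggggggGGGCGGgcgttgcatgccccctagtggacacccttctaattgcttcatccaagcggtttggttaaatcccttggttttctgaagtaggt

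The promoter windows were searched on both strands for the TATA box (TATAAA), the CCAAT box (CCAAT), the GC box (GGGCGG), the E-box (CACGTG) and the core of the interferon response element (GAAA and GAAA parted by any 2 bases). The Serpinb9 window held the interferon element core once, read on the minus strand and starting 46 bases before the gene start, inside the peak and overlapping no other motif. This core is present in 3.38% of the 21045 promoter windows of protein-coding genes, and among the listed genes also at Serpinb6a. A GC box, present in 46.7% of windows, lay 43 bases after the Serpinb9 start, in Serpinb6b 89 bases before the start and in Serpinb6c 79 bases before it, and Serpinb6a held 3. The TATA box is present in 12.7% of windows, the CCAAT box in 38.5% and the E-box in 7.91%. None of these 3 was in the Serpinb9 or Serpinb6b window, and the Serpinb6c window held a TATA box 3 bases after its start. The GC content of the Serpinb9 window was 51.0%, of that of Serpinb6b 48.3% and of that of Serpinb9b 46.7%, against a median of 56.7% for all windows. These are matches of letters only.

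Serpinb9c (gene ID 20707, 33149275 to 33159754, minus strand) had 1 peak, at 33151694 to 33151770, with 3 tags and an implied input of 1.00. Its summit was 8023 bp downstream of the outer start. Its fold of 179.5 was the highest at the listed genes and is the most that a height of 3 can give. Serpinb9b, the granzyme M inhibitor (gene ID 20706, 33027414 to 33040588), had no summit, and its nearest, 22924 bp away, was that of Serpinb9. Serpinb1a, the elastase inhibitor (gene ID 66222, 32842092 to 32853206), had none either. Its nearest summit, at 32823227, was 18865 bp away on the side facing out of the cluster, in a peak of 31 tags and fold 462.1.

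The cluster span, from 5 kb before Serpinb1a to 5 kb after Serpinb6a (32837092 to 34007794, 1.17 Mb), held 23 summits, or 19.6 per Mb. The density was 23.1 per Mb over chromosome 13 and 31.5 over the autosomes. Of windows of this width placed every 10 kb along chromosome 13, 36.1% held fewer summits and the median was 27. Besides the 12 summits at listed genes there were 11 others, and 14 of the 23 peaks held 3 tags. The 2 peaks of at least 20 tags lay between listed genes and held 57 of the 136 tags of the span, against 43 at all listed genes together. The stronger, at 33786470 to 33786805 in the pseudogene Vmn2r-ps94, had 37 tags and a fold of 720.8, which 0.497% of all peaks exceeded. It lay 45659 bp from Serpinb6e. The other, at 33634072 to 33634305, had 20 tags and a fold of 570.9 and lay in no annotated gene, 27229 bp from Serpinb6d.

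**Figure D4:**
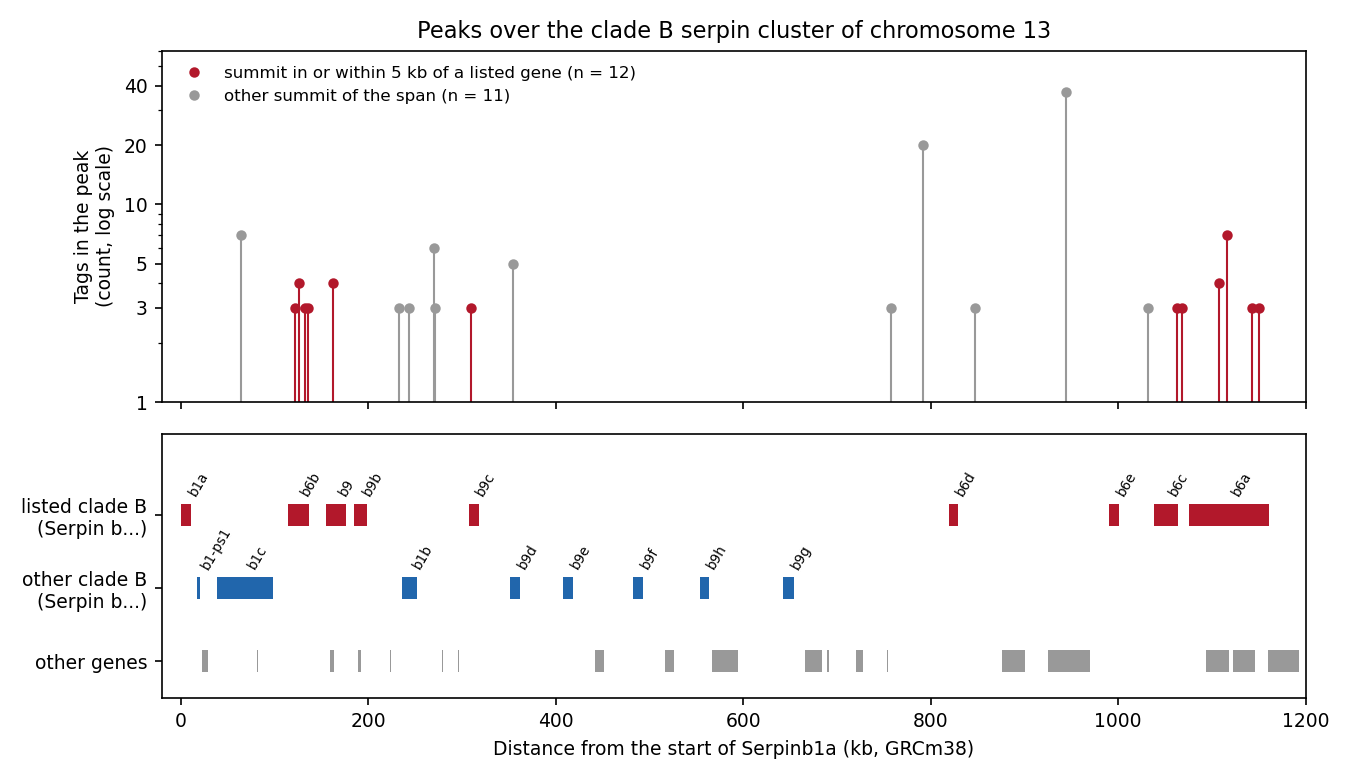
Map of the cluster by distance from the start of Serpinb1a (kb), with the tags of each peak above (count, log scale) and gene bodies below. Red stems are the 12 peaks at listed genes and grey stems the 11 others. Red bodies are the 9 listed genes, blue bodies other clade B genes and grey bodies all other genes, and labels leave out the stem Serpin (b6b for Serpinb6b). The listed genes with summits lie at both ends of the cluster, the 20-tag and 37-tag peaks lie between listed genes, and no stem stands over Serpinb9e, Serpinb9f, Serpinb9h and Serpinb9g.

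The summits were uneven along the cluster. Between the bodies of Serpinb9c and Serpinb6d, 501.6 kb apart, there were 3 summits, while Serpinb6b alone held 4 in its body of 22257 bp. The longest stretch with no summit, 402828 bp from 33196820 to 33599648, ranked number 12 of the 2711 gaps of chromosome 13, whose median was 25566 bp. It took in 4 whole protein-coding genes, all of them clade B paralogs outside the list: Serpinb9e, Serpinb9f, Serpinb9h and Serpinb9g. Of the 7 other protein-coding clade B genes in the span, 3 had a summit: Serpinb1b with 2, Serpinb1c with 1 and Serpinb9d with 1. With the listed genes this made 8 of 16. Of all protein-coding genes 60.8% had a summit, and of those with windows of 20 to 25 kb 54.7%.

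Close paralogs can share reads, and no label or header tells what was done with reads matching more than 1 place, so counts at paralogs are uncertain. Likeness was measured between promoter windows of 300 bases. Those of Serpinb9e, Serpinb9f and Serpinb9g were 89.1 to 93.4% identical and shared unbroken runs of 71 to 165 bases. The tag size in the file header is 25 bp and the reads are 76 nt long per the labels, and the run between Serpinb9e and Serpinb9f is longer than both. Serpinb9d, next to the stretch with no summit, was 82.9 to 89.5% identical to these 3 with runs of 41 to 47 bases, and it had a summit of 5 tags. The part of shared sequence in the stretch with no summit was not tested. Serpinb9h reached at most 47.8% with any of the other clade B genes that had a window. Among the listed genes, the 28 pairs were 40.9 to 66.9% identical (median 45.5%), highest between Serpinb6d and Serpinb6e, and shared no run above 15 bases. Serpinb9 and Serpinb9b were 57.4% identical. These values cover promoter windows only.

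Proteases of cytotoxic, neutrophil and mast cell granules, among them targets of these serpins, were described from a list of 14 genes that also holds Prf1, which encodes the pore-forming protein perforin. A summit was present at 5 of the 14 (35.7%; median window 13.5 kb), and Prf1 had none. These genes are short: 13 had windows below 20 kb, and 5 of those had a summit (38.5%), against 36.2% of all protein-coding genes of that size. These were Gzma (granzyme A, 3 tags, fold 151.2), Gzmm (granzyme M, 4 tags, fold 115.3), Cma1 (a mast cell chymase, 5 tags, fold 184.8), and the neighbours Elane and Prtn3 (neutrophil elastase and proteinase 3), which share a best peak of 9 tags and fold 264.0. Gzmb, the target of Serpinb9, and Ctsg, the target of Serpinb6a, had none.

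The clade B genes of chromosome 1 are the other cluster of the family. There 8 of 12 genes had a summit (66.7%; median window 29.6 kb), against 5 of the 9 listed genes of chromosome 13 (55.6%; median window 23.2 kb). Of all protein-coding genes 60.8% had one, and of those with windows of 25 to 35 kb 62.1%. Of the 4 chromosome 1 genes with windows below 20 kb, 0 had a summit, against 36.2% of all protein-coding genes of that size. The density was 19.6 summits per Mb over the chromosome 13 span and 22.4 over that of chromosome 1, against 23.1 over the whole of chromosome 13 and 30.8 over the whole of chromosome 1. The median peak held 3 tags with a fold of 115.5 in the chromosome 13 span and 5 tags with a fold of 123.7 in that of chromosome 1. The highest fold at a listed gene of chromosome 13 was 179.5, and at a gene of the chromosome 1 cluster it was 528.1, at Serpinb2, which had 29 tags. The difference between the clusters was not tested, since each is a single place in a single list.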

How the data were processed

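The deposited files are 3 lists of the same 77823 peaks from 1 MACS 1.4.4 run, per the file headers: p cutoff 1e-05, fragment length 53 bp, local backgrounds of 1 and 10 kb, and 1 merged treatment against 1 input scaled down to it. Coordinates are on mm10 (GRCm38), the build in the submitters' processing notes. No source used here names the aligner. Tags are deposited whole-number counts per peak. The fold enrichment is the authors' ratio, the deposited score is −log10 of the MACS p multiplied by 10, the summit height is a deposited signal (tag pileup), and the deposited FDR in percent is 0 for every peak. These are each peak's own values from the authors' caller, used only to describe, rank or filter peaks within this list. The implied input is height divided by fold, over the genome mean of 0.0167 tags per fragment length (851227 tags, 2.7 Gb). The authors' files give no depth per library. Treatment and input held 851227 and 50030325 tags after filtering.

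Genes, starts and promoter sequences came from RefSeq GRCm38.p6. 8 of the 9 genes had a promoter window. Serpinb1a was not among them. The planned comparison of proteins was replaced by promoter windows. Summits in body plus 5 kb were tested against 500 kb flanks on each side (two-sided exact binomial test, SciPy 1.17.1, Benjamini-Hochberg over all protein-coding genes). The test was run on made data with known excesses, in which window counts were drawn and flank counts kept as observed. The recovery is not given here, so a gene that did not pass is not shown to lack an excess. The test takes summits as independent, and they are not replicates of a library, so its p-values describe this list. Alignments used Biopython 1.88 (global; identical columns over all columns). Named were all 9 genes, other clade B genes of the span with a summit, non-serpin genes of the span and, from the protease and chromosome 1 lists, up to 4 genes of highest fold. Marveld2, Serpinb9e, Serpinb9f, Serpinb9g and Serpinb9h, and the genes without a summit Gzmb, Ctsg and Prf1, fall outside this rule and were chosen after their values were seen, as were Prtn3, which shares its peak with Elane, the comparison of promoter windows and the motifs. The members and lists were chosen with earlier results of these data known. Alternatives covered the window, the assignment, the peak threshold and the flanks.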

Additional observations from a re-analysis of the deposited data

How the results depend on the processing

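The counts rest on the weakest peaks. With a score of at least 100, 1 listed gene had a summit, from 1 peak, and the span held 6 summits. With peaks of more than 3 tags, 3 genes, 4 peaks and 9 summits were left, and with peaks at or above the median fold 3 genes, 3 peaks and 9 summits. Of all protein-coding genes 42.6%, 49.4% and 45.5% had a summit under these 3 settings. Serpinb6b had 0, 1 and 0 summits, against 4 reported. Under gene body only, body plus 1 kb, body plus 10 kb and any overlap of the interval, 5 listed genes had a summit. The share of all protein-coding genes with one was, in that order, 47.9%, 51.0%, 69.4% and 61.0%. The listed share of 55.6% was above it under gene body only and body plus 1 kb, and below it under the others. The peaks at listed genes numbered 11 to 13. The span held 23 summits, a count that such settings can change only at its outer edges. For the 5 listed genes with a summit, 20 of 35 counts under an alternative stayed within 1.5 times the reported count. No listed gene passed the flank test under any of the 10 alternatives. Over them the exact binomial p of Serpinb6b ran from 0.0012 to 1 and its adjusted p from 0.22 to 1. The number of all genes passing was 11 as reported, 7 with a score of at least 100, 0 at or above the median fold, 20 with 10 kb, 26 with flanks of 1 Mb and 265 against the chromosome mean. No paired analysis was possible because the list holds 1 merged treatment. Peaks of 3 tags limit every value here.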

Other observations

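Beside the serpins the span of the cluster holds 20 other annotated genes, and 5 of them had a summit by the same rule. These were Gm36181, Gm5194 and Vmn2r-ps94 with 1 each and 1110046J04Rik and Nqo2 with 2 each. The summits of Gm36181, 1110046J04Rik and Nqo2 are among those already counted at Serpinb9 and Serpinb6a. No share over all annotated genes of these kinds is given here, so the count has no background to be read against. Ripk1, a kinase that relays death receptor signals and whose body overlaps that of Serpinb6a, had none. The lncRNA 1110046J04Rik, which overlaps Serpinb6a, held the 7-tag peak of that gene.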
